A study of Mus musculus with 3 samples.

Results

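Alveolar type 2 (AT2) cells were taken from the single-cell RNA sequencing (scRNA-Seq) of mouse lung by the RNA of each cell. A cell was counted as AT2 when Sftpc made up at least 2% of its unique molecular identifiers (UMIs, tags that let each captured transcript be counted once) and Lamp3, Slc34a2, and Abca3 together gave at least 3 UMIs. It also had to hold no UMI of Ptprc or Cdh5 and at most 5 UMIs of Col1a1 and Col1a2 together. These criteria selected 1041 of the 7642 cells kept for analysis. The kept cells, out of 9644 deposited, had 200 or more genes and no more than 20% of UMIs from mitochondrial genes. The lungs came from 3 wild-type C57BL/6 mice at P14, numbered mice 2, 3, and 4, and every mouse had been kept in room air (RA) from day 1 to day 14. The libraries were made from whole lung with the 10x Genomics 3′ v3 kit, each from a separate mouse, so the mouse was the replicate. No hyperoxia-exposed or genetically altered animal was among them, so the results describe 1 condition.

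AT2 cells are the cuboidal cells of the alveolus that make, store, and secrete pulmonary surfactant, the mixture of phospholipid and protein that lowers surface tension in the air space. They keep surfactant in lamellar bodies, take part of it back up, and secrete proteins that bind or kill microbes. They can divide and give rise to alveolar type 1 (AT1) cells, the flat cells through which gas is exchanged.

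Mouse 2 gave 381 AT2 cells, mouse 3 gave 251, and mouse 4 gave 409. These were 15.97% of the cells of mouse 2 (exact 95% binomial interval 14.5 to 17.5%), 9.65% of mouse 3 (8.54 to 10.85%), and 15.4% of mouse 4 (14.1 to 16.8%), or 13.7% ± 3.50 (SD, n = 3). Mouse 3 was the low value, and it also held the most cells of the Ptprc-positive set, 1354 against 646 and 848. That set took cells with Ptprc RNA, no Cdh5 UMI, and at most 5 UMIs of Col1a1 and Col1a2 together. Among cells outside this set the AT2 share lay closer together, at 21.9%, 20.1%, and 22.6%. The intervals cover counting error only. AT2 cells were larger libraries than the other cells. Their median UMI counts were 16881, 16660, and 15636 in mice 2, 3, and 4, against 5634, 4457, and 5221.5 in all other cells, and they held 26.5% ± 4.94 (SD, n = 3) of all UMIs. The median number of genes detected in an AT2 cell was 3959, 4058, and 3854, and mitochondrial UMIs made up 7.08%, 7.44%, and 6.95%. AT2 cells of mice 2 and 3 shared 1 barcode. A doublet caller marked 10 of the AT2 cells, and they were kept.

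The selected cells carried their defining markers. Sftpc, the precursor of surfactant protein C, made up a median of 18.8%, 16.6%, and 17.5% of a cell's UMIs in mice 2, 3, and 4. Slc34a2, a phosphate transporter, reached 6240, 6792, and 6719 counts per 1e6 summed UMIs (CPM). Lamp3, a lamellar body membrane protein, gave 1385, 1489, and 1415 CPM, and Abca3, which moves phospholipid into lamellar bodies, gave 1364, 1327, and 1356 CPM. These genes chose the cells, so their levels are a description without a test. Of the cells that met all other criteria, 761 had Sftpc at 10 to 20% of UMIs, 233 had more, 7 lay between 2 and 3%, and 6 lay between 1 and 2%. The 3 cells nearest inside the Sftpc limit had 2.35%, 2.51%, and 2.54%, and the 3 nearest outside had 1.81%, 1.67%, and 1.61%. A further 87 cells met both positive criteria but held Ptprc (40 cells), Cdh5 (40 cells), or over 5 Col1a1 and Col1a2 UMIs (13 cells), with some cells in more than 1 of these classes.

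RNA of other cell types was low in the AT2 cells. The criteria had left out cells with Ptprc or Cdh5 RNA or over 5 Col1a1 and Col1a2 UMIs. Low sums of markers that accompany these genes were thus partly set by the selection. The 5 endothelial markers outside the criteria, Pecam1, Cldn5, Kdr, Egfl7, and Ramp2, summed to 19.1 to 19.8 CPM, against 7606 to 7930 CPM in cells with Cdh5 RNA. The 5 stromal markers Col3a1, Dcn, Mgp, Eln, and Acta2 summed to 52.0 to 73.4 CPM, against 49878 to 56056 CPM in cells rich in Col1a1 and Col1a2. None of the listed endothelial or stromal markers was at 0 in every AT2 sum. The 7 alveolar macrophage markers summed to 44.5 to 58.9 CPM, of which Lpl made up most at 40.6 ± 5.08 (SD, n = 3), while Marco was at 0.148, 0, and 0 CPM. Free RNA ran the other way as well. Among 1826 Ptprc-positive cells with Cd79a or Cd79b RNA, which should not make surfactant, Sftpc was detected in 84.5%, 56.9%, and 84.7% at median depths of 4228, 4096, and 3980 UMIs. The immune list of 10 markers was low apart from Lyz2, described with the defence genes.

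Differences from other cells were tested on UMIs summed for each mouse and cell set with edgeR's quasi-likelihood test and Benjamini-Hochberg adjustment. Against all 6601 other cells, 4201 of 14438 genes tested were higher in AT2 cells (29.1%) and 5573 were lower (38.6%). Without the TMM scaling the counts were 2249 higher and 9170 lower, and the log2 fold change of the median gene moved from −0.11 to −0.61. Fold changes are to be read against that median, and the counts of the lists below against the 29.1% and 38.6%. The cells had been selected on RNA of the same programme, so genes that accompany Sftpc in a cell had to differ. The adjusted p-values weigh the size of such a difference against the spread between the sums of the 3 mice, and are a description only. A stricter reading asked which genes were higher than in each of 4 other sets separately: AT1 cells, cells with Ptprc, cells with Cdh5, and cells rich in Col1a1 and Col1a2. That held for 1072 of 14145 genes (7.58%).

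The surfactant proteins and the enzymes that process them were the most uniform group. All 5 listed genes other than Sftpc were higher than in all other cells, with a median log2 fold change of 4.78, and all 5 were higher than in each of the 4 sets. Sftpa1, which encodes a collectin that binds microbes and lipid, gave 13731, 12329, and 12736 CPM in mice 2, 3, and 4, against 549 ± 82.1 CPM (SD, n = 3) in all other cells. The 3 mice lay close together and far above the other cells. The log2 fold change of Sftpa1 was 5.06 ± 0.15 (SE, adjusted p = 3.35e-08, edgeR). Sftpb, needed to pack surfactant lipid, gave 8974, 8665, and 8285 CPM and a log2 fold change of 5.14 ± 0.11 (adjusted p = 1.29e-08). Sftpd, the other lung collectin, gave 3278, 2737, and 2801 CPM and a log2 fold change of 4.78 ± 0.25 (adjusted p = 6.9e-07). Napsa and Ctsh, proteases that cut the surfactant protein precursors, reached 2509 ± 135 and 930.4 ± 57.7 CPM. With each cell thinned to 1000 UMIs, Sftpb was detected in 99.8% of AT2 cells and in 3.50% of the cells with Cd79a or Cd79b RNA.

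The sequences just before the start sites of Sftpb and Sftpa1 are shown because both genes were among the most abundant transcripts of these cells. Capitals mark CTCAAG or CAAGTG on either strand, short letter strings like those read by NKX2-type factors, to which the lung factor NKX2-1 belongs. Sequences are from RefSeq, build GRCm38.p6, on the plus strand at chr6:72304460-72304609 for Sftpb and chr14:41131638-41131781 for Sftpa1.
Sftpb: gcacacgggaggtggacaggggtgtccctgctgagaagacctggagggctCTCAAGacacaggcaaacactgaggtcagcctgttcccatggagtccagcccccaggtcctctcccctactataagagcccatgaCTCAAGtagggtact
Sftpa1: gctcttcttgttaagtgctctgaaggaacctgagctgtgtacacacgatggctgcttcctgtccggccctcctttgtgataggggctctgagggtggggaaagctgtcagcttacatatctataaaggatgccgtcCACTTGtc
The Sftpa1 run covers 144 bases from 150 bases before the RefSeq start site and so stops short of that site. In Sftpb the string CTCAAG began 100 and 15 bases before the start site. In Sftpa1 the reverse complement of CAAGTG began 14 bases before the RefSeq start site. The strings share the letters CAAG and can overlap. Over the 150 bases before each start, CTCAAG occurred in 8.43% and CAAGTG in 6.25% of 10767 tested genes with an entry. Among 113 of the 151 genes that were higher than in each of the 4 sets, at 50 CPM or more and with a log2 fold change of at least 3, the shares were 7.08% and 7.96%. The strings were thus about as common in the promoters of the AT2-high genes as in all promoters, and a match is a description of letters only.

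**Figure D1:**
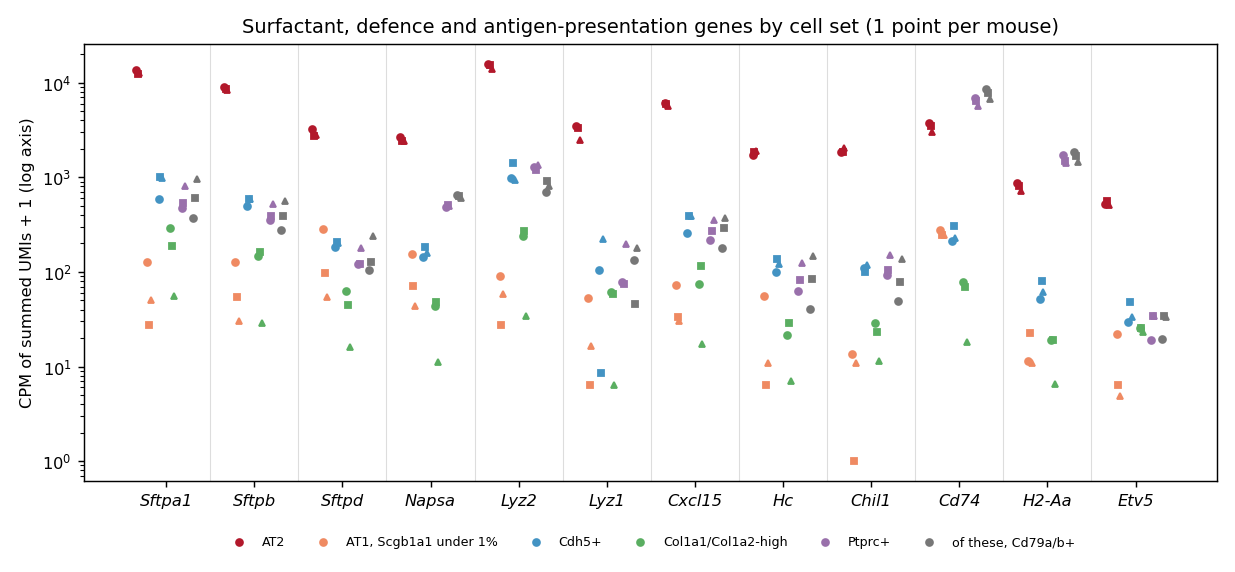
CPM of summed UMIs plus 1 (log axis) of 12 genes in 6 cell sets, 1 point per mouse (circle, mouse 2; square, mouse 3; triangle, mouse 4). AT2 points of Sftpa1, from 12329 to 13731 CPM, and of Sftpb, from 8285 to 8974 CPM, stand above every other set, whereas Cd74 and H2-Aa are highest in the Ptprc-positive sets; the grey points are the Ptprc-positive cells with Cd79a or Cd79b RNA.

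Genes of lipid synthesis were high together. Of 15 fatty acid synthesis genes, 13 were higher than in all other cells, 1 was lower, and 1 did not pass the test, with a median log2 fold change of 2.65 against −0.11 for all genes. Scd1, which puts a double bond into fatty acids, gave 2837, 2653, and 2318 CPM, and its log2 fold change was 4.58 ± 0.21 (adjusted p = 3.42e-07). Fasn, which builds palmitate, gave 644, 653, and 599 CPM with a log2 fold change of 4.20 ± 0.09 (adjusted p = 1.27e-08). Fabp5, a fatty acid binding protein, reached 1161 ± 138 CPM, and Srebf1, the transcription factor that drives fatty acid genes, reached 139 ± 1.31 CPM. The exception was Elovl6, a fatty acid elongase, at 0.149 ± 0.149 CPM against 11.7 ± 1.47 in other cells, while Elovl1 of the same family was at 415 ± 19.9 CPM. Thus 11 of the 15 were higher than in each of the 4 sets, and the list was not uniform in direction.

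Of 12 genes of cholesterol metabolism, 11 were higher than in all other cells and 10 were higher than in each set. Their levels were moderate, from 10.3 CPM for Dhcr7 to 114 CPM for Hmgcs1. Insig1, which holds back sterol synthesis when cholesterol is plentiful, was at 77.4 ± 6.24 against 17.4 CPM in other cells, and Idi1, an enzyme of the isoprenoid steps, was at 63.8 ± 1.66 against 16.4. Of 14 genes of lamellar bodies and phosphatidylcholine, 11 were higher, none was lower, and 3 did not pass. Lpcat1, which remakes the phosphatidylcholine of surfactant, reached 2006 ± 18.2 CPM, with a log2 fold change of 4.53 ± 0.10 (adjusted p = 1.2e-08). Npc2, a lysosomal cholesterol carrier, reached 3235 ± 81.8 CPM. Hps1, Hps4, and Ap3b1, general organelle-trafficking genes, were at 7.85, 15.5, and 45.01 CPM and did not pass the test.

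Among 18 lung epithelial transcription factors, 16 were higher in AT2 cells than in all other cells, and 9 were higher than in each set. Nkx2-1, which specifies lung epithelium, gave 654, 691, and 692 CPM (log2 fold change 4.30 ± 0.15, adjusted p = 7.95e-08). Etv5, a target of fibroblast growth factor signalling, gave 520, 562, and 508 CPM (log2 fold change 4.77 ± 0.10, adjusted p = 1.2e-08). Cebpa reached 323 ± 11.9 CPM and Tfcp2l1 147 ± 7.17 CPM. Nfib and Foxp1 were lower, at 208 ± 11.2 and 310 ± 15.2 CPM against 801 and 658 CPM in other cells. Sox9, a factor of the embryonic lung tip, ranged from 21.1 to 30.4 CPM.

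Receptors and secreted signals were mixed. Of 11 growth factor receptors, 7 were higher, 3 were lower, and 1 did not pass. Over all genes tested, 29.1% were higher and 38.6% lower. Fgfr2, the receptor of fibroblast growth factors made by mesenchyme, gave 360, 415, and 375 CPM, and Met, the hepatocyte growth factor receptor, gave 123, 149, and 125 CPM. Igf1r, the insulin-like growth factor receptor, was lower, at 30.4 ± 4.34 against 176 CPM in other cells. Of 12 secreted signals, 8 were higher and 3 were lower. Il33, an alarm cytokine, gave 215, 292, and 258 CPM and was higher than in each of the 4 sets, with a log2 fold change of 4.91 ± 0.14 against all other cells (adjusted p = 3.48e-08). Csf2, the growth factor of alveolar macrophages, was at 8.31, 5.76, and 7.67 CPM. It was detected in 13.1%, 9.16%, and 11.2% of AT2 cells, against 0 to 0.383% of the cells with Cd79a or Cd79b RNA. These shares are not at equal depth, since AT2 cells had higher median UMI counts. Csf2 too was higher than in each set. Kitl, the ligand of Kit, was at 4.28 ± 0.618 CPM against 159 in other cells, and Edn1, the precursor of endothelin, was at 2.49 ± 0.587 against 49.3.

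A list of 14 genes held Notch pathway genes together with Esr2 and Klf2. Of these, 10 were lower in AT2 cells than in all other cells, none was higher, and 4 did not pass the test. Dll4 was at 2.23, 2.07, and 1.20 CPM in AT2 cells of mice 2, 3, and 4, against 41.0 CPM in other cells. Hey1, a Notch target, was at 0.456 ± 0.409 CPM, and Esr2 had no UMI in any AT2 cell. Notch2 was the receptor with the smallest difference, at 38.0, 42.6, and 38.6 CPM against 50.2 ± 6.49 in other cells, and it did not pass the test. Its direction depended on the scaling. The log2 fold change was positive with TMM and −0.34 without it (adjusted p = 0.0193, edgeR). Klf2, a factor of endothelium under flow, was at 5.30 ± 2.61 against 395 CPM. With each cell thinned to 1000 UMIs, it was detected in 46.5% of cells with Cdh5 and in 48.0% of cells with Cd79a or Cd79b RNA.

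Secreted defence proteins ranked among the most abundant transcripts. Of 11 listed genes that could be tested, 7 were higher than in all other cells, 2 were lower, and 2 did not pass. Lyz2, a lysozyme best known from macrophages, gave 15825, 15230, and 13880 CPM, the third-ranked transcript after Sftpc and Malat1. Lyz2 was also above the 1280 ± 86.8 CPM of the Ptprc-positive cells. Of those 2848 cells, 1826 held Cd79a or Cd79b RNA, and no level in macrophages alone was taken. The log2 fold change of Lyz2 against all other cells was 4.91 ± 0.12 (adjusted p = 1.61e-08). Cxcl15, a lung chemokine, gave 6038, 5883, and 5722 CPM, and Hc, complement component 5, gave 1713, 1858, and 1876 CPM. Chil1, a chitinase-like protein, reached 1905 ± 104 CPM and Lcn2, which holds iron from bacteria, 819 ± 99.9 CPM. Cxcl2 and Il18 were lower than in other cells, and Cxcl2 was at 1.30 ± 0.331 against 313 CPM in other cells. Cxcl1, like Cxcl2 a neutrophil chemokine, was at 5.79, 0.691, and 2.10 CPM and did not pass the test.

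Genes of MHC class II presentation, which shows peptides to helper T cells, included abundant transcripts of AT2 cells. Cd74, the invariant chain, gave 3732, 3519, and 3018 CPM and was detected in 100%, 99.6%, and 98.8% of the cells. With each cell thinned to 1000 UMIs, Cd74 was detected in 93.8% of AT2 cells and in 5.16% of cells with Cdh5. H2-Aa gave 873, 807, and 709 CPM and H2-Ab1 gave 629, 565, and 473 CPM. None of the 7 genes was higher than in each set, since Ptprc-positive cells held 6308 ± 677 CPM of Cd74. Against all other cells, 5 of 7 were higher, and H2-Ab1 changed sign without TMM scaling (log2 fold change 0.48 against −0.03). Ciita, the factor that switches these genes on, was at 18.1, 18.2, and 19.5 CPM. It was detected in 26.2% ± 0.469 of AT2 cells and in 1.03 to 2.05% of cells with Cdh5, which had lower median UMI counts.

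The 20 genes outside the lists with the largest rise over all other cells were led by Stx19, Veph1, Egfl6, Lrp2, and Mlc1. All 20 were higher than in each of the 4 sets, and they had log2 fold changes from 4.96 to 5.29. Most were of moderate level. Stx19, a syntaxin of membrane fusion, gave 63.8, 61.7, and 57.4 CPM. Dram1, a lysosomal protein of autophagy, was the most abundant at 1201, 1308, and 1260 CPM, followed by Bex2 at 814 ± 20.1, Lgi3 at 767 ± 11.1, and Egfl6, a matrix-associated growth factor, at 573 ± 9.83 CPM. Pla2g1b, a secreted phospholipase, reached 323 ± 8.29 CPM and Slc26a9, a chloride channel, 133 ± 5.67 CPM. The Apoc1 level varied most among them, at 233, 342, and 243 CPM. All other cells included 87 cells that met both positive AT2 criteria. Summed over all other cells, Sftpc was at 5894 CPM, against 169849 CPM in AT2 cells. How far such AT2 RNA limited the size and order of the 20 fold changes was not tested.

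The nearest epithelial neighbours were AT1 cells, chosen by at least 2 UMIs of Ager and 3 of Hopx, Aqp5, Rtkn2, and Akap5 together. They also had to fail the AT2 criteria, with no UMI of Ptprc or Cdh5 and at most 5 of Col1a1 and Col1a2 together. There were 126 such cells, in numbers of 43, 21, and 62. Both sets were chosen by RNA, so genes that accompany the markers of either set had to differ between them. The adjusted p-values of this comparison carry that limit. The AT1 set had to be read with care. It held 14 cells in which Scgb1a1, a product of airway club cells, made up at least 1% of UMIs, and those cells carried 49.1% of the set's UMIs. Without them, 112 cells remained, and in mouse 3 these still showed Foxj1, a factor of ciliated cells, at 498 CPM against 0 in mice 2 and 4. The comparison is given with all 126 cells and, as a choice made after the data were seen, with the Scgb1a1-rich cells set apart.

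AT2 cells were higher than the 126 AT1 cells in 3159 of 14145 genes (22.3%) and lower in 2060 (14.6%). Without TMM scaling the counts were 2002 and 2826, and with DESeq2 2280 and 2778, so which direction held more genes depended on the scaling. With the Scgb1a1-rich cells apart, 2999 of 15179 genes were higher (19.8%) and 1778 were lower (11.7%). All 5 surfactant genes were higher either way. Of the 7 MHC class II genes, all 7 were higher either way, with a median log2 fold change of 4.91 with the 126 cells and 5.71 with the 112, against 0.19 and 0.23 for all genes. H2-Aa was at 796 ± 82.7 CPM in AT2 cells and 13.9 CPM in the 112 AT1 cells, a log2 fold change of 6.55 ± 0.42 (adjusted p = 6.87e-09).

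Several genes of AT2 cells had no UMI at all among 1175879 UMIs of the 112 AT1 cells, the set formed after the data were seen. With 3 counts over the whole set as the floor, Elf5, an epithelial factor at 148 ± 9.06 CPM in AT2 cells, was at least 57.9-fold higher. Apoc1 was at least 107-fold and complement C3 at least 52.5-fold higher on the same floor. Fam46a was at least 49.5-fold higher. Il33 had 0.697 CPM in these AT1 cells and 255 in AT2 cells (log2 fold change 8.66 ± 0.67, adjusted p = 4.35e-08). The 126 cells were not empty of these RNAs. Elf5 was at 39.9 ± 21.4 CPM there, C3 at 91.1 ± 66.3, and Il33 at 12.9 ± 21.4 (SD). C3 did not pass the test against the 126 cells, where its log2 fold change was 0.53 (adjusted p = 0.185).

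AT1 genes were present in AT2 cells, mostly at lower levels than in AT1 cells. Against all other cells, 12 of the 18 listed AT1 genes were higher, 1 was lower, and 5 did not pass. Their median log2 fold change there was 1.27, against −0.11 for all genes. Of 13 AT1 genes outside the AT1 criteria, 12 were lower than in the 126 cells and all 13 were lower than in the 112. Genes that accompany the AT1 criteria were bound to be lower in AT2 cells, so these counts are a description. Ager, the receptor for advanced glycation end products, gave 1791, 1666, and 1877 CPM in AT2 cells and was detected in 99.7%, 100%, and 98.3% of them. In the 112 AT1 cells it gave 11704 ± 3217 CPM, and in the cells with Cd79a or Cd79b RNA it gave 102 ± 40.4. Hopx, by contrast, was at 119, 96.0, and 167 CPM, in 28.4% ± 3.39 of AT2 cells. Clic5, an AT1 chloride channel protein, was at 130 ± 41.6 against 2333 CPM in the 112 AT1 cells. Of 12 secreted signals, 2 were higher and 6 lower than in the 126 AT1 cells, and 2 were higher and 5 lower than in the 112. Over all genes tested, 22.3% were higher and 14.6% lower than in the 126, and 19.8% and 11.7% than in the 112. Vegfa, the growth factor of capillaries, was at 184 ± 43.1 CPM against 2676 ± 495 in those AT1 cells (log2 fold change −3.34 ± 0.24, adjusted p = 2.32e-08). Pdgfa, which acts on myofibroblasts, was at 132 ± 15.9 against 1267 CPM (log2 fold change −2.76 ± 0.24, adjusted p = 1.81e-07).

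Ion transport split between these epithelial cell types. Scnn1a, Scnn1b, and Scnn1g, the subunits of the epithelial sodium channel, were at 108, 22.9, and 29.1 CPM in AT2 cells and at 752, 268, and 537 CPM in the 112 AT1 cells, and each was lower in AT2 cells. Aqp1, a water channel, was at 50.04 ± 28.2 against 1150 CPM. S100g, a calcium-binding protein, was instead high in AT2 cells, at 1152, 1079, and 1103 CPM against 24.1. Cftr, the chloride channel mutated in cystic fibrosis, was at 81.3, 104, and 87.9 CPM against 12.1, with a log2 fold change of 4.22 ± 0.49 (adjusted p = 4.07e-06).
Of 9 genes linked to a transitional AT2 state, 5 were higher and 3 lower than in all other cells, and 1 did not pass. Over all genes tested the shares were 29.1% higher and 38.6% lower, so the lower share of the list was near that of all genes. Against the 126 AT1 cells, none was higher, 5 were lower, and 4 did not pass, and against the 112, 4 were lower and 5 did not pass. Krt8 was at 159 ± 4.48 CPM in AT2 cells against 684 in the 112 AT1 cells.
Epithelial adhesion genes were high against all other cells and divided against AT1 cells. Of 12 such genes, 11 were higher than in all other cells and 1, Tjp1, was lower. Against the 126 AT1 cells, 3 were higher and 7 lower. Muc1, a membrane mucin, was at 840 ± 13.5 CPM in AT2 cells against 33.6 in the 112 AT1 cells, and Cldn3, a tight junction claudin, was at 446 ± 6.57 against 127. Krt7, a keratin, was at 129 ± 9.70 against 1552, and Krt19 was at 49.4 ± 3.04 against 458.

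**Figure D2:**
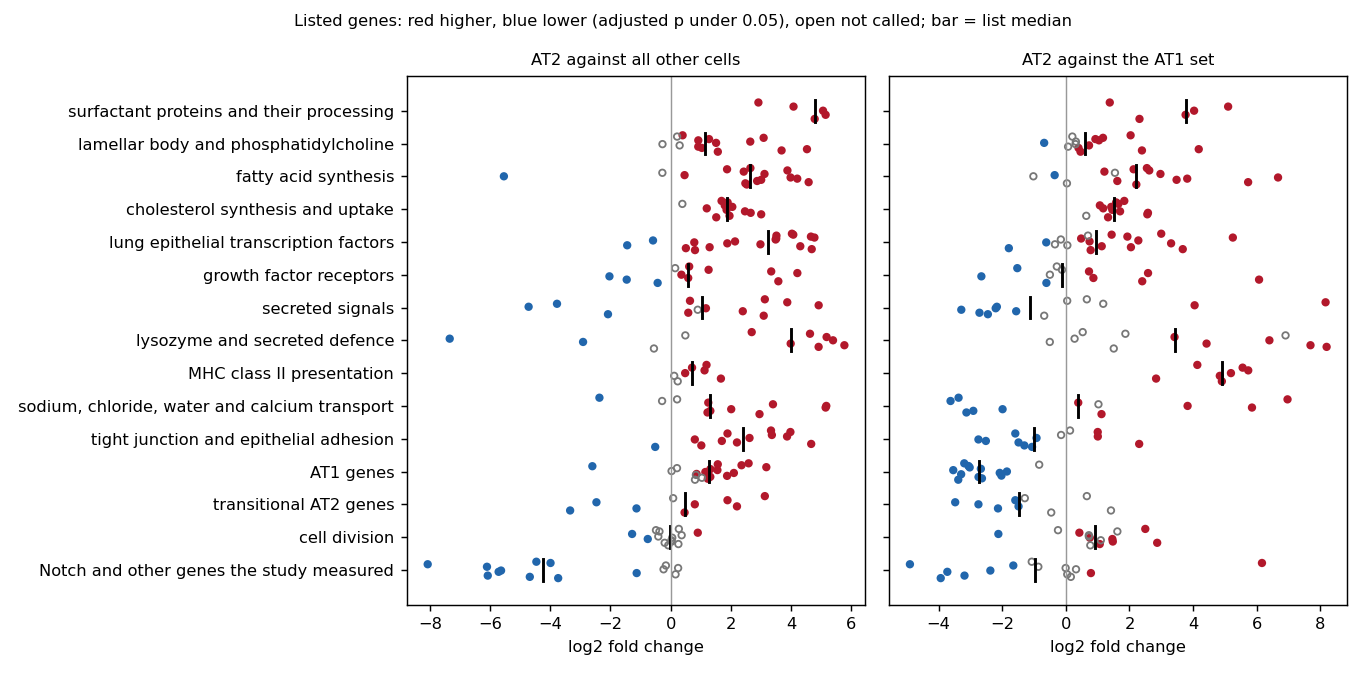
Log2 fold change of each listed gene (x axis), AT2 cells against all other cells on the left and against the 126 cells of the AT1 set on the right. Red points are higher and blue points lower at an adjusted p under 0.05 (edgeR), open points did not pass, and the black bar is the list's median; all 5 surfactant points lie right of 0 in both panels, and the 12 called AT1 genes lie left of 0 on the right. Fitted values against a set at 0 depend on the prior count.

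A small number of genes varied most widely among AT2 cells. Each of 1025 cells with enough UMIs was thinned to 2000 UMIs. The variance over the mean was taken in each mouse, and the lowest of the 3 mice was kept. Over 1064 genes with a mean of at least 0.2 UMIs, this lowest ratio had a median of 0.996. Counting alone gives a value near 1, and taking the lowest mouse pulls the median down. At this depth, modest variation in genes of few UMIs can go unseen. The widest ratios, each the lowest of the 3 mice, were 53.0 for Scgb1a1, 50.5 for Retnla, and 27.3 for Lyz1, followed by Sftpc at 14.7, Malat1 at 13.3, Lyz2 at 12.3, Sftpa1 at 8.01, and Scd1 at 6.60. Mitochondrial genes, Chia1, and Gm42418 made up the rest of the first 15. Without the 10 marked doublets the ratio of Scgb1a1 was 1.29, whereas those of Retnla and Lyz1 were 57.7 and 27.3. The sizes also depend on the depth of thinning: at 1000 and 4000 UMIs, Retnla was at 25.4 and 106 and Lyz1 at 13.9 and 53.7. The ratios describe cells of 1 mouse, which are not replicates.

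Lyz1 and its paralog Lyz2 were spread unlike over the cells. In thinned cells, Lyz1 had no UMI in 65.3%, 70.2%, and 67.4% of AT2 cells, and the 10% of cells with most of it held 66.1%, 70.5%, and 71.0% of its UMIs. Lyz2, its neighbour on the same strand, had no UMI in only 3.97%, 2.82%, and 4.76%. With every cell thinned to 1000 UMIs, Lyz1 was detected in 28.3% ± 2.90 of AT2 cells and in 1.34% ± 0.624 of the cells with Cd79a or Cd79b RNA. Lyz1 lies at chr10:117287797-117292868 and Lyz2 at chr10:117277331-117282321, both on the minus strand (GRCm38, GENCODE M21). The promoter-proximal bases of both are shown because the genes are near-copies with unlike distributions over cells. Each run covers 101 bases that start 150 bases before the RefSeq start site, read on the minus strand, at chr10:117292918-117293018 for Lyz1 and chr10:117282322-117282422 for Lyz2. Capitals mark CAAGTG.
Lyz1: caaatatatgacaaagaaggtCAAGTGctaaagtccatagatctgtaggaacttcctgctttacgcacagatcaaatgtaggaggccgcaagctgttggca
Lyz2: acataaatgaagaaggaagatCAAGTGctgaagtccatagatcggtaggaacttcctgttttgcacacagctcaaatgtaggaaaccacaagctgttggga
The runs were identical at 80 of 101 positions, and CAAGTG stood 129 bases before the start site in both. Reads from such close paralogs can be assigned to the wrong gene or dropped, so the split between Lyz1 and Lyz2 is uncertain.

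Cells with high Lyz1 (at least 2500 CPM, or 5 UMIs in 2000) were set against cells with low Lyz1 (under 500 CPM, below 1 UMI in 2000), a division chosen after the values were seen and described without a test. There were 93, 51, and 79 high cells and 261, 184, and 292 low cells in mice 2, 3, and 4. Of 2684 genes at 50 CPM or more, none was at least 2-fold higher in all 3 mice (0%), and 1, Scgb1a1, was at least 2-fold lower in all of them (0.0373%). Fold here and in the next divisions is the ratio after 10 CPM was added to both groups. A single cell in each mouse gave 84.4%, 93.7%, and 81.8% of the Scgb1a1 UMIs. Sftpc was at 173505 CPM in the high and 169322 CPM in the low cells, and Sftpb at 8784 and 8608. Lyz2 was lower in the Lyz1-high cells, at 10374 against 16831 CPM, and log2 ratios in the 3 mice were −0.70, −0.58, and −0.83. Log2 ratios of Sftpa1, Sftpb, Sftpc, and Sftpd stayed between −0.04 and 0.18.

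**Figure D3:**
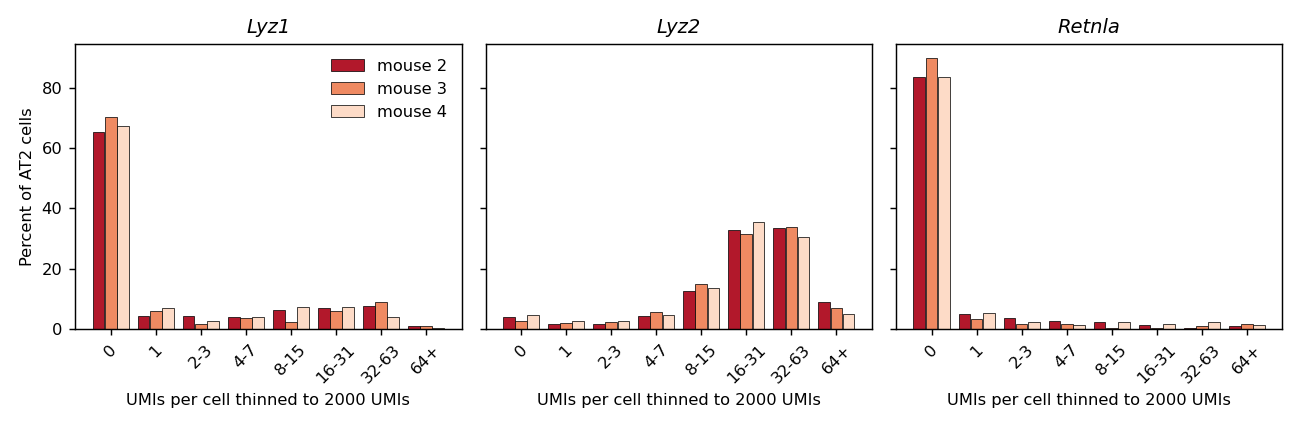
Percent of AT2 cells (y axis) by the number of UMIs of Lyz1, Lyz2, and Retnla in cells thinned to 2000 UMIs (x axis, unequal bins), 1 bar per mouse. Lyz1 is at 0 in 65.3 to 70.2% of cells and Retnla in 83.5 to 89.9%, whereas Lyz2 is at 0 in 2.82 to 4.76%.

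Retnla, a small secreted protein known from type 2 immune responses, was carried by few cells at high level. The summed level was 941, 1827, and 1640 CPM, yet a UMI was found in 31.8%, 19.9%, and 29.6% of cells. The share was 3.05%, 3.29%, and 4.98% in the cells with Cd79a or Cd79b RNA, which had lower median UMI counts. In mouse 3 a single AT2 cell gave 36.0% of the Retnla UMIs. Cells with at least 2500 CPM of Retnla numbered 21, 12, and 31, or 5.56%, 4.84%, and 7.77% of the AT2 cells with 2000 UMIs, and none of them was marked as a doublet. They were set against 329, 230, and 354 cells with under 500 CPM in the same way as for Lyz1, again without a test. Median depths were 18316 and 16176 UMIs. Of 2753 genes, 6 were at least 2-fold higher in the Retnla-high cells of every mouse (0.218%) and 12 were at least 2-fold lower (0.436%), with 10 CPM added. Without that addition, Nfkbia (83.2, 106, and 88.1 against 39.2, 37.4, and 40.6 CPM) and Top2a (54.7, 127, and 110 against 25.3, 62.0, and 13.01) also exceeded 2-fold in every mouse.

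The 6 higher genes were Slc26a4, Chia1, Mki67, C3, Pim1, and Sox9. Slc26a4, an anion exchanger, gave 133, 753, and 312 CPM in the high cells of mice 2, 3, and 4 and 2.64, 1.78, and 1.73 CPM in the low cells. Chia1, an acidic chitinase, gave 1212, 1365, and 668 CPM against 165, 111, and 94.9. C3 gave 326, 480, and 472 CPM against 106, 109, and 104, and Sox9 gave 50.3, 204, and 96.4 against 19.0, 18.3, and 15.4. All 3 mice showed each of these differences, with mouse 3, which had the fewest high cells, giving the widest ones for Slc26a4 and Sox9. The proliferation gene Mki67 was at 158, 200, and 91.4 CPM against 33.4, 60.995, and 18.2. In mouse 3, only 1 of the 12 Retnla-high cells held at least 3 UMIs of the division genes named below.
The genes on the low side included AT1 genes. Igfbp2 was at 4.38, 0, and 1.66 CPM in Retnla-high cells against 85.8, 79.0, and 138 in the low cells. Spock2 was at 0, 0, and 6.65 against 65.2, 57.7, and 98.7, and Hopx at 48.1, 3.64, and 29.9 against 132, 105, and 174. Akap5 and the basement membrane collagens Col4a3 and Col4a4 lay on the same side. Ager was at 1021 ± 20.9 against 1860 ± 115 CPM. The surfactant genes went both ways. Sftpc was at 147936 ± 11606 against 171995 ± 10972 CPM and Sftpb at 6719 ± 473 against 8828 ± 370, whereas Sftpd was at 4789 ± 1053 against 2786 ± 358. Of macrophage markers, Marco was at 0 in both groups and Csf1r at 1.11 against 6.62 CPM. High Chia1 (at least 2500 CPM) was found in 11 cells, 7 of them Retnla-high. These 7 were 63.6% of the Chia1-high and 10.9% of the Retnla-high cells.
High Chia1 against low Chia1 cells gave 2 genes higher (0.0736%) and 28 lower (1.03%) by 2-fold in every mouse, but with 5, 2, and 4 high cells per mouse.

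**Figure D4:**
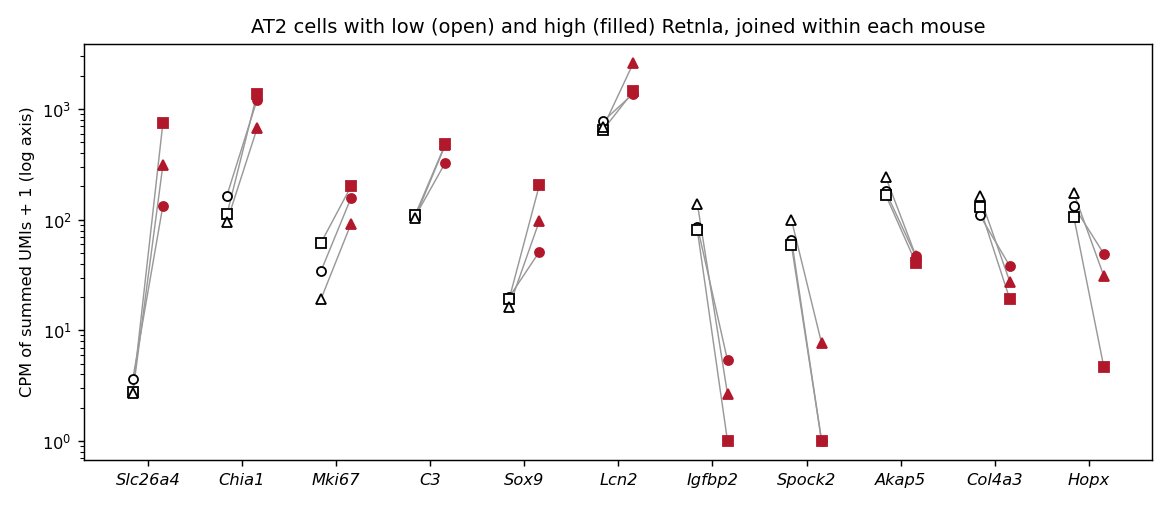
CPM of summed UMIs plus 1 (log axis) of 11 genes in AT2 cells with under 500 CPM of Retnla (open) and at least 2500 CPM (filled), joined for each mouse (circle, mouse 2; square, mouse 3; triangle, mouse 4). Slc26a4 to Lcn2 rise in every mouse, from 2.05 to 400 CPM on average for Slc26a4, and Igfbp2 to Hopx fall in every mouse.

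Few AT2 cells held RNA of cell division. At least 3 UMIs over Mki67, Top2a, Cdk1, Birc5, Ccnb1, Ccnb2, and Cenpf were found in 15, 15, and 13 cells, or 3.94%, 5.98%, and 3.18% of the AT2 cells of mice 2, 3, and 4 (exact 95% binomial intervals 2.22 to 6.41%, 3.38 to 9.67%, and 1.70 to 5.37%). The intervals overlapped. Their median depths were 22730, 24534, and 21124 UMIs, above those of all AT2 cells, and a fixed number of UMIs is more easily reached in a deeper cell. The RNA of AT2 function was lower in them. Cxcl15 was at 2356, 3396, and 3544 CPM, against 6251, 6191, and 5859 in AT2 cells with no such UMI. Slc34a2 was at 2906, 4058, and 4587 against 6481, 7142, and 6886, and Sftpb at 5398, 6355, and 5503 against 9262, 8982, and 8478. Sftpd was not lower, at 3402 ± 505 against 2879 ± 319 CPM, and Krt8 was higher, at 312 ± 114 against 145 ± 1.97. These are descriptions of 43 cells. As a list, 14 division genes showed no common direction against all other cells, with 1 higher, 2 lower, and 11 not passing. Among Retnla-high cells, 4 of 21, 1 of 12, and 4 of 31 held at least 3 division UMIs, against 9 of 329, 12 of 230, and 8 of 354 Retnla-low cells.

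The 3 mice were alike in most AT2 transcripts. Of 1304 genes with at least 100 CPM in some mouse, 1301 had a range under 1 on the log2 scale, and the median range was 0.13. Retnla had a range of 0.96 and Hopx 0.79. The exceptions were Xist, Clca1, and Scgb3a2. Clca1 was at 194 CPM in mouse 2 from a single cell, and that cell also gave 95.6% of the Scgb3a2 UMIs of mouse 2. It held 77870 UMIs, and Sftpc made up 4.52% of them.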

How the data were processed

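The authors aligned 3′ v3 libraries with Cell Ranger (version 3.0.2, build mm10, per the labels) and deposited 1 matrix of UMI counts for each mouse. UMIs were not divided by gene length, since each captured transcript gives 1 UMI. Here, cells were filtered and selected as stated above. AT2 cells gave 4344017 to 6736396 UMIs per mouse. Members and gene lists were chosen with earlier results of these data known. UMIs were summed per mouse and set (sums of under 10 cells left out), and CPM were taken from the sums. Tests used edgeR 4.0.16 (R 4.3.3) with TMM, filterByExpr, glmQLFTest, and an adjusted p under 0.05. In 1 fit, AT2 cells were set against all other cells, and in another against AT1, Ptprc-positive, Cdh5-positive, and Col1a1/Col1a2-rich cells. Alternatives were DESeq2 1.42.0, no TMM, no filter, other thresholds, doublet removal, and each mouse left out.

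Sets from 1 mouse share the animal, so the mouse number pairs them: over 1345 genes, deviations from the set means correlated at over 0.1 in 24 of 30 same-mouse pairs (−0.08 to 0.42). Genes were named from the lists, the 20 largest other rises at 50 CPM or more, the 10 largest differences from AT1 cells each way, the 15 most variable genes, and the 10 with the widest range between mice. Slc26a4 and the other genes of the Lyz1, Retnla, and Chia1 divisions were named after their values were seen. Doublets were called by simulated pairs at a fixed rate and kept in the results. Positions were matched for 253 of 253 genes to GENCODE M21.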

Additional observations from a re-analysis of the deposited data

Results flagged for a closer look

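Outside the cell filter, 45 deposited cells met the AT2 gene criteria (19, 9, and 17 in mice 2, 3, and 4). They were flagged because they lie in data the comparisons did not use. No control samples exist for this count.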

How the results depend on the processing

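Without TMM, 2249 genes were higher and 9170 lower than in all other cells, 2002 were higher than in AT1 cells, and 630 were higher than in each of the 4 sets. With at least 2 division UMIs, 6.06% of AT2 cells counted as dividing. Leaving out each mouse in turn gave 3330 to 4339 genes higher and 4710 to 5402 lower than in all other cells, 2152 to 2602 higher and 1506 to 1890 lower than in AT1 cells, 757 to 929 higher than in each set, an AT2 share of 12.5 to 15.7%, and a dividing share of 3.56 to 4.96%. With the mouse as replicate block, the paired fit gave 4233 genes higher and 5624 lower than in all other cells and 3117 and 2056 against AT1 cells, and no count moved by over 1.5 times. DESeq2 made 2280 genes higher and 2778 lower than in AT1 cells. Of 212 listed genes, 24 changed the sign of their log2 fold change against all other cells without TMM. Those called in either fit were Adgrf5 (−0.10), Ap3b1 (−0.29), Elovl5 (−0.041), Fgfr3 (−0.15), H2-Ab1 (−0.0275), Mcm2 (−0.45), Mcm6 (−0.47), Notch2 (−0.34), and Sfn (−0.0441). Against AT1 cells without the Scgb1a1-rich cells, and then also with the replicate block, sign changed for Cyp2f2 (2.32 and 2.41), Gabrp (4.71 and 4.72), Kdr (0.28 and 0.27), Plet1 (0.70 and 0.69), Scd2 (−0.57 and −0.57), Scgb1a1 (3.15 and 3.48), Scgb3a2 (7.11 and 6.91), and Tmem212 (0.31 and 0.0789), and for Scd2 also with the stricter cell filter (−0.31). The cause was not tested. Of the single-gene comparisons under all alternatives, 5464 kept their call, 168 lost it, and 130 gained it. The 126 AT1 cells limit the AT1 comparison, and genes near 0 UMIs there have no bound beyond the floor.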

Other observations

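Of the AT2 cells, 10 had Scgb1a1 at 1% or more of their UMIs, 8 of them in mouse 4, with a median of 586.5 UMIs and Sftpc at a median of 3.07%. These 10 cells held 87.0% of all Scgb1a1 UMIs in AT2 cells. Within each mouse a single cell gave 84.4%, 93.7%, and 81.8% of those UMIs. Xist was at 0.891, 1.61, and 860 CPM in AT2 cells of mice 2, 3, and 4, and at 0.129, 0.243, and 1664 CPM in all other cells.
Retnla was also found outside AT2 cells. In the Ptprc-positive cells it was at 113, 143, and 1014 CPM in mice 2, 3, and 4. In those with Cd79a or Cd79b RNA it was at 8.03, 29.6, and 1618 CPM, though detected in 3.05%, 3.29%, and 4.98% of the cells.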
